A study of Mus musculus with 9 samples.

Results

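The phagocyte NADPH oxidase is the enzyme with which neutrophils and macrophages make superoxide, and 6 of its subunit genes were followed here: Cybb, Cyba, Ncf1, Ncf4, Rac1 and Rac2. They were chosen by name from a table of 55322 mouse genes, with no threshold on their levels but with earlier results of these data known, and all 6 passed the filter on low levels. The table held 9 libraries of full-length cDNA in 3 groups of 3, all from C57BL/6 WT mice. Peritoneal macrophages (PMs, sorted as CD11b+F4/80+ cells) came from naive mice. CD11b- B cells and CD11b+ B cells were sorted from the bone marrow 48 h after an intraperitoneal injection of lipopolysaccharide (LPS, 5 mg/kg), a bacterial cell wall product that models sepsis, and the marrow had first been depleted of cells bearing CD3, CD4, CD8, Gr-1, NK1.1 or TER119. CD11b is the integrin chain on which the B cells were split, so its own gene is no result. B cells and PMs differed in cell type, tissue and treatment at once, and these cannot be told apart.

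The oxidase is built around a membrane heterodimer, cytochrome b558. Cybb encodes its catalytic chain (gp91phox, NOX2), which carries electrons from NADPH to oxygen, and Cyba encodes the smaller chain (p22phox), which stabilises the catalytic chain and docks the cytosolic subunits. In resting cells the cytosolic subunits wait apart from the membrane: Ncf1 encodes the organiser p47phox and Ncf4 the phosphoinositide-binding p40phox. On stimulation they move to the membrane together with a GTP-loaded Rac, a small GTPase encoded by Rac1 in most cell types and by Rac2 in blood cells. Loss of a phox subunit causes chronic granulomatous disease, in which phagocytes cannot kill certain bacteria and fungi, and B cells are known to carry the oxidase at lower activity than phagocytes.

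The 6 genes lie on 4 chromosomes of GRCm38 in the GENCODE annotation. Cybb is at chrX:9435252-9487771 on the minus strand, Cyba at chr8:122424776-122432930 (minus), Ncf1 at chr5:134220053-134229625 (minus) and Rac1 at chr5:143503634-143528036 (minus). Ncf4, at chr15:78244801-78262580 on the plus strand, and Rac2, at chr15:78559167-78572783 on the minus strand, are separated by 296.6 kb. Exons of Ncf1 overlap those of Gtf2ird2, and exons of Rac1 overlap those of Daglb. Gtf2ird2 and Daglb had mean levels of 4.16 and 2.62 FPKM (reads on a gene scaled to its exon length and to the reads of the library). No source used here states whether strand was read in the counting, so reads in the shared exons are uncertain.

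The start regions of the catalytic chain and its partner are shown because these 2 chains form 1 complex and their transcripts fell by different amounts below. Each run holds 250 bases before and 50 bases after the RefSeq start on GRCm38.p6, and capitals mark the core that PU.1 and other ETS factors bind, GAGGAA, on either strand.
Cybb, chrX:9469275-9469574, minus strand: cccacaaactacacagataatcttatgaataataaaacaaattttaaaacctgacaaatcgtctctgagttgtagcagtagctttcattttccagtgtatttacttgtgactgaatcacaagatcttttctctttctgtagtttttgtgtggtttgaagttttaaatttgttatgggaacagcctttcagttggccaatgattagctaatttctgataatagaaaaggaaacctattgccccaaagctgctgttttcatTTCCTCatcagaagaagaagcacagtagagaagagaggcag
Cyba, chr8:122432891-122433190, minus strand: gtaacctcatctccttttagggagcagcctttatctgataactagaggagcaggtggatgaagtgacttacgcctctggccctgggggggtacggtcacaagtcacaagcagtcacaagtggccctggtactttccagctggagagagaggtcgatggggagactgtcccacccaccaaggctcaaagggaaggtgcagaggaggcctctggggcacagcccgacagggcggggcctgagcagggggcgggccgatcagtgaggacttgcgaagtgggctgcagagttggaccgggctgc
The RefSeq start of Cybb lies inside the longer GENCODE span given above. The Cybb window was 35.3% G and C and the Cyba window 60.7%. The core occurred once in the Cybb window, on the opposite strand and just after the start, and these letters were not in the Cyba window. Of all 32851 windows of this length, 28.3% held the core. The octamer ATGCAAAT (1.74% of all windows) and the C/EBP pattern TTNCNNAA (40.7%), searched on both strands, were in neither window. Such matches describe the letters only.

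Each library held between 18014658 and 35251215 reads on genes, and each of the 6 genes had at least 1172 reads in every library, so counting error was small beside the spread between libraries. The labels do not tie the 3 libraries of a group to separate mice, although the error bars in the study's account of these libraries are of the kind it keeps for biological replicates. The p-values measure the spread between these libraries, whatever its source. The sorted populations carried their defining transcripts: 16 B cell markers summed to 14875 to 17826 FPKM in CD11b- B cells, 14499 to 17971 in CD11b+ B cells and 279 to 392 in PMs, and 18 monocyte and macrophage markers summed to 24998 to 62046 FPKM in PMs. The B cell groups differed in markers of other lineages. The 16 neutrophil markers summed to 2.11 to 3.298 FPKM in CD11b- B cells, with a read for all 16 and none with a mean of 1 FPKM, against 219, 666 and 1595 FPKM in the 3 CD11b+ B cell libraries, where 14 of 16 reached that mean, and 217 to 280 FPKM in PMs, where Ly6g had no read. The 18 monocyte and macrophage markers summed to 59.8 to 69.1 FPKM in CD11b- B cells, where Cd300e had no read, and 168 to 350 FPKM in CD11b+ B cells. These sums include Itgam, the gene of CD11b, with means of 0.507 FPKM in CD11b- and 1.58 FPKM in CD11b+ B cells. The 6 plasma cell markers summed to 79.02 to 131 FPKM in CD11b- B cells, 194 to 215 FPKM in CD11b+ replicates 1 and 2 and 586 FPKM in replicate 3, and the 6 erythroid markers to 1.40 to 21.2 FPKM in CD11b- and 27.6 to 39.2 FPKM in CD11b+ B cells. The 8 dendritic cell markers summed to 46.5 to 51.9 FPKM in CD11b- B cells and to 61.9, 68.3 and 88.1 FPKM in CD11b+ replicates 1, 2 and 3, while the sums of T cell and NK cell markers overlapped. Only 2 of the 8 dendritic cell markers in CD11b- and 3 in CD11b+ B cells reached a mean of 1 FPKM. Of the 6 erythroid markers 2 did so in each B cell group, so both sums rest on few genes. Neutrophils, macrophages and dendritic cells also express the oxidase, and the part of such cells or their RNA in the values below was not tested.

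Cybb, the catalytic chain, was 415, 304 and 437 FPKM in the 3 PM libraries, 75.3, 76.2 and 59.0 FPKM in CD11b- B cells, and 87.7, 80.4 and 63.4 FPKM in CD11b+ B cells. Every PM library lay far above all 6 B cell libraries, and both B cell groups overlapped. Among all genes Cybb ranked between 102 and 170 in PM libraries by FPKM and between 615 and 944 in B cell libraries. CD11b+ B cells held 20.02% and CD11b- B cells 18.2% of the mean PM level.

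Cyba, the stabilising chain, was 904, 1403 and 1083 FPKM in PMs, 498, 581 and 479 FPKM in CD11b- B cells, and 474, 567 and 638 FPKM in CD11b+ B cells. It stayed among the most abundant transcripts of every group, with a rank between 35 and 49 in PMs and between 57 and 82 in B cells. The B cell groups held 49.6% (CD11b+) and 46.0% (CD11b-) of the PM mean, and no B cell library reached the lowest PM library.

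Ncf1, the organiser, did not separate the groups at all. Its level was 63.3, 85.4 and 93.0 FPKM in PMs, 98.4, 92.1 and 63.4 FPKM in CD11b- B cells, and 91.4, 100.04 and 80.3 FPKM in CD11b+ B cells. The lowest PM library and the lowest CD11b- library had nearly the same value.

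Ncf4, encoding p40phox, was higher in B cells than in PMs. It was 86.5, 83.3 and 75.4 FPKM in PMs, 201, 207 and 181 FPKM in CD11b- B cells, and 202, 215 and 175 FPKM in CD11b+ B cells. Libraries of a group agreed closely, with a coefficient of variation between 6.92% and 10.3%, and the B cell libraries all stood above the PM libraries.

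The GTPases followed different courses. Rac2, the Rac of blood cells, was 140, 253 and 208 FPKM in PMs, 602, 626 and 572 FPKM in CD11b- B cells, and 575, 614 and 459 FPKM in CD11b+ B cells. It ranked between 51 and 109 among all genes in the B cell libraries. All 6 B cell libraries lay above the highest PM library. Rac1, the widely expressed Rac, was the lowest of the 6 genes in every library: 22.5, 31.9 and 36.8 FPKM in PMs, 40.7, 43.9 and 8.13 FPKM in CD11b- B cells, and 19.5, 28.3 and 26.9 FPKM in CD11b+ B cells. CD11b- replicate 3 held 19.2% of the mean of the other two CD11b- libraries, and without it the CD11b- mean of Rac1 was 42.3 FPKM. Of 5134 genes with a mean of at least 10 FPKM in CD11b- B cells, 7 were more than 4 times lower in replicate 3 than in each of the other two libraries, Rac1 among them, and 17 were more than 4 times higher. Other libraries stood apart in as many genes or more, with 19 such low genes in CD11b+ replicate 3 and 35 such high genes in PM replicate 1.

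**Figure D1:**
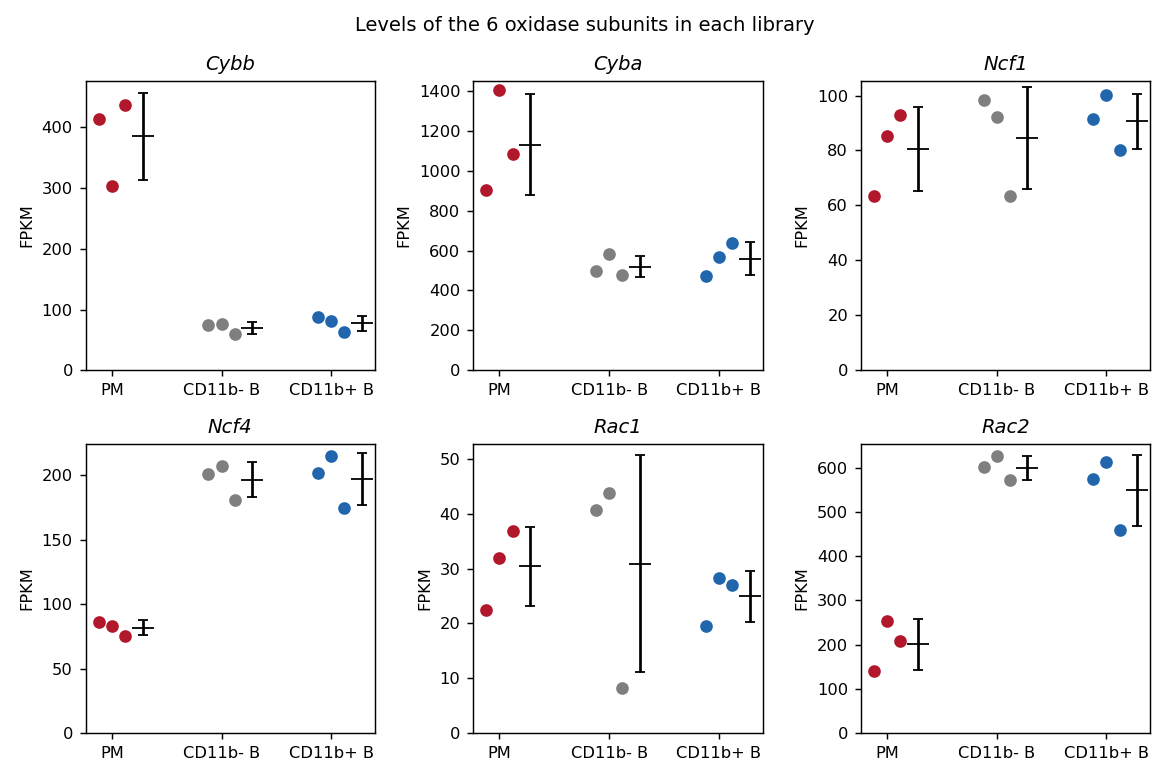
Level of each subunit gene in FPKM (linear axes from 0) in the 3 libraries of PMs, CD11b- B cells and CD11b+ B cells; points are libraries and the bar beside each group is the mean with its SD (n = 3). Cybb and Cyba are highest in PMs, Ncf4 and Rac2 are highest in B cells, Ncf1 overlaps in all groups, and Rac1 shows 1 low CD11b- library at 8.13 FPKM.

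The order of the genes by FPKM, a measure per length, therefore differed between macrophages and B cells. In all 3 PM libraries it began Cyba, Cybb, Rac2 and ended with Rac1, while Ncf1 and Ncf4 changed places between libraries and had overlapping ranges. In 5 of 6 B cell libraries it ran Rac2, Cyba, Ncf4, Ncf1, Cybb, Rac1, and in CD11b+ replicate 3 Cyba stood above Rac2. The ranges of Rac2 and Cyba overlapped in both B cell groups (572 to 626 and 479 to 581 FPKM in CD11b- B cells), and so did those of Ncf1 and Cybb. The catalytic chain, in the second place in PMs, was thus in the fifth place in B cells.

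The first comparison asks whether, after LPS, B cells with CD11b on their surface differed in the oxidase genes from those without it. None of the 6 genes was called in either direction (limma on log2(FPKM + 1), Benjamini-Hochberg adjusted p below 0.05, a scale that understates changes of low genes), none had an unadjusted p below 0.05 and none had groups that did not overlap. Over all 21778 genes tested, 0.0689% passed in the upward direction in CD11b+ B cells (15 genes), 0 passed in the downward direction, 7.68% had an unadjusted p below 0.05 and 14.9% had groups that did not overlap. The direction of the calls over all genes depended on the fit: 356 of 409 were higher with DESeq2, 416 of 571 in edgeR without a filter and 2 of 6 without a filter on FPKM, so lower calls appeared in each of these. The fitted log2 fold change of Cybb was 0.13 (SE 0.17, limma adjusted p = 0.793), and its 95% interval ran from -0.26 to 0.52. For Cyba, Ncf1, Ncf4 and Rac2 the log2 fold changes were 0.10, 0.12, 0.00 and -0.14, and the 4 intervals lay between -0.56 and 0.55. For Ncf4 the interval, -0.33 to 0.33, was the narrowest of the 6. For Rac1 the fold change of -0.01 on the log2 scale came with an interval from -1.29 to 1.27, and it was -0.76 (SE 0.19, adjusted p = 0.560) without CD11b- replicate 3. A p that misses the threshold does not show that the groups were equal, and changes smaller than these intervals remained undetectable at this number of libraries. No alternative fit called any of the 6, DESeq2 and edgeR included.

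Neutrophil and macrophage transcripts moved with the CD11b+ group. In CD11b+ replicates 1, 2 and 3, beside Cybb at 87.7, 80.4 and 63.4 FPKM, the monocyte and macrophage markers summed to 350, 325 and 168 FPKM and the neutrophil markers to 666, 1595 and 219 FPKM. Cybb had the order of the macrophage sum, Cyba (474, 567 and 638 FPKM) had the reverse of it, and Ncf1, Ncf4, Rac1 and Rac2 were highest in replicate 2, which had the highest neutrophil sum. With 3 libraries these orders are a description, and the part of such transcripts in the levels was not tested. With each library left out in turn, the log2 fold changes between the B cell groups ranged from 0.01 to 0.26 for Cybb, from 0.00 to 0.22 for Cyba and from -0.22 to -0.01 for Rac2, and they took both signs for Ncf1 (-0.08 to 0.24), Ncf4 (-0.06 to 0.09) and Rac1 (-0.76 to 0.39).

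Each B cell group was then compared with macrophages, the reference for a professional phagocyte. Both comparisons share the PM libraries, so their similarity is not independent evidence. In each, 2 of the 6 genes were called lower (Cybb and Cyba), 2 were called higher (Ncf4 and Rac2), and Ncf1 and Rac1 were not called. Among all 22102 genes tested in CD11b+ B cells against PMs, 21.5% rose and 8.78% fell, and among 20985 genes tested in CD11b- B cells, 25.8% rose and 11.0% fell. The 4 called genes were also those whose libraries did not overlap, and neither did those of 41 (CD11b+) and 43 (CD11b-) of the 59 pathway genes described further down. The share of all genes without overlap was not computed here, and 41.2% (CD11b+) and 45.8% (CD11b-) of them had an unadjusted limma p below 0.05. An exact two-sided permutation test of a single gene cannot go below p = 0.1 with 3 libraries against 3. Each of the 4 reached that smallest value in both comparisons, which restates the lack of overlap and adds no support.

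These folds rest on a scale that was itself shifted. The median log2 fold change of genes at 1 FPKM or more was 0.53 in both comparisons with PMs, and it was 0.07 (CD11b+) and 0.08 (CD11b-) when libraries were scaled by median ratios. With that scaling 51.0% of the calls between CD11b+ B cells and PMs were higher in B cells, against 71.0% on the FPKM scale, and 51.4% against 70.1% for CD11b- B cells. Values on both scales are therefore given for the 6 subunits. Of the pathway genes described further down, Arhgap25, Tiam1, Syk, Pak1, Hvcn1, Prdx5, Hmox1 and Idh1 kept their direction and their call with median-ratio scaling in both comparisons, and the other three (Gclc, Me2 and Nox1) have their values beside them.

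Cybb fell by 2.30 on the log2 scale in CD11b+ B cells against PMs (SE 0.23, limma adjusted p = 0.0002) and by 2.43 in CD11b- B cells (SE 0.20, limma adjusted p = 9.4e-05). With median-ratio scaling it fell by 2.86 and by 2.99. It was called lower under every alternative tried in both comparisons. Cyba fell by 0.999 in CD11b+ B cells (SE 0.28, limma adjusted p = 0.0282) and by 1.10 in CD11b- B cells (SE 0.23, limma adjusted p = 0.0083), and with median-ratio scaling by 1.56 and 1.66. The call of Cyba in CD11b+ B cells was lost when any of 4 libraries was left out, with adjusted p = 0.0860 without PM replicate 2, 0.0644 without PM replicate 3, 0.113 without CD11b+ replicate 1 and 0.0931 without CD11b+ replicate 2. Without a filter on low levels it was also lost (adjusted p = 0.0749), whereas no alternative ended the call in CD11b- B cells.

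Ncf4 rose by 1.26 on the log2 scale in both B cell groups (SE 0.18 and adjusted p = 0.0014 in CD11b+, SE 0.15 and adjusted p = 0.0006 in CD11b-, both by limma). Relative to the shifted median the rise was smaller: with median-ratio scaling it was 0.70 in both, and still called (adjusted p = 0.0338 and 0.0172). Rac2 rose by 1.48 in CD11b+ B cells (SE 0.27, limma adjusted p = 0.0050) and by 1.62 in CD11b- B cells (SE 0.24, limma adjusted p = 0.0017). With median-ratio scaling the rise was 0.92 in CD11b+ B cells and no longer called (adjusted p = 0.0888), and 1.06 in CD11b- B cells and called (adjusted p = 0.0381). Counts with DESeq2 size factors in edgeR also missed the threshold for Rac2 in CD11b+ B cells (0.91, adjusted p = 0.0507).

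Ncf1 differed from PMs by 0.18 (CD11b+, limma adjusted p = 0.507) and 0.06 (CD11b-, limma adjusted p = 0.835) on the log2 scale, and the sign turned with median-ratio scaling (-0.38 and -0.49), with no call on either scale. Rac1 differed by -0.27 (adjusted p = 0.420) and -0.26 (adjusted p = 0.737) by limma, and the CD11b- value was 0.49 (adjusted p = 0.189) without CD11b- replicate 3. With median-ratio scaling Rac1 was at -0.81 (adjusted p = 0.0713) and -0.80 (adjusted p = 0.363), and edgeR with DESeq2 size factors gave -0.82 in CD11b+ B cells (adjusted p = 0.0509), with no call in any of these. In these bulk libraries, fewer cells with a transcript and less of it in each cell cannot be told apart.

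**Figure D2:**
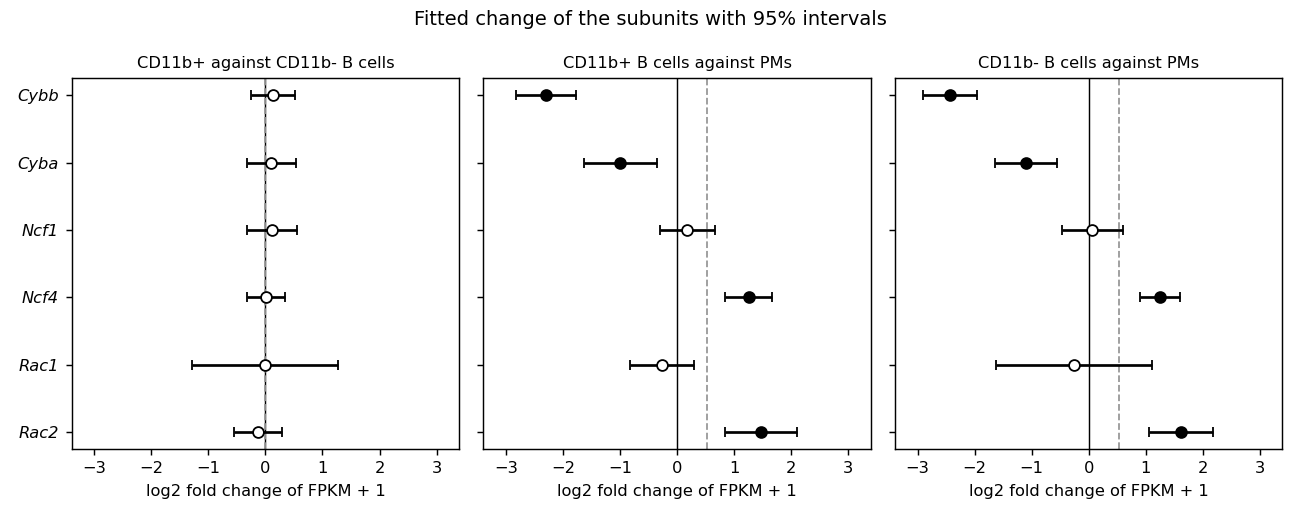
Fitted log2 fold change of log2(FPKM + 1) with its 95% interval (limma, 3 against 3 libraries) for each subunit gene in the 3 comparisons; filled points passed an adjusted p of 0.05 and the dashed line is the median of genes at 1 FPKM or more. All 6 intervals include 0 between the B cell groups, while Cybb and Cyba lie left and Ncf4 and Rac2 right of both lines against PMs.

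The share of the PM level that B cells held differed in size between the subunits and macrophage identity genes. Of the 18 monocyte and macrophage markers, 14 had a PM mean of at least 10 FPKM, and in CD11b- B cells these held between 0.0682% (Timd4) and 4.55% (Mrc1) of the PM mean, with a median of 0.0954%. In CD11b+ B cells they held between 0.181% (Timd4) and 4.49% (Fcgr1), with a median of 0.748%. Lyz2, the macrophage lysozyme, was at 0.0911% in CD11b- and 0.501% in CD11b+ B cells. The lowest of the 6 oxidase genes, Cybb, was at 18.2% and 20.02%, above every one of these 14 markers in both B cell groups. The markers were chosen for being high in macrophages and the subunits were not, so these percentages are a description without a test.

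**Figure D3:**
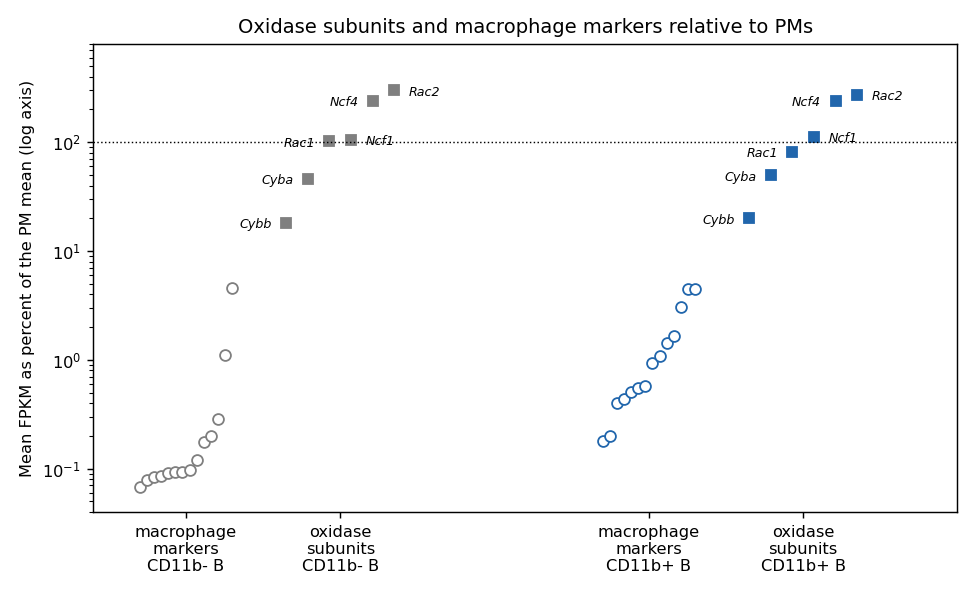
Mean FPKM in B cells as a percent of the PM mean (log axis, dotted line at 100%) for 14 monocyte and macrophage markers (open circles) and the 6 oxidase subunits (squares), in CD11b- and CD11b+ B cells. The markers lie between 0.0682% and 4.55%, and the subunits between 18.2% (Cybb) and 299% (Rac2).

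Ratios within a library do not depend on the scaling between libraries, and those below were chosen after the levels were seen, so they are a description. For the membrane pair, Cyba over Cybb was 3.09 ± 1.33 in PMs, 7.45 ± 0.764 in CD11b- B cells and 7.51 ± 2.37 in CD11b+ B cells (mean ± SD of the FPKM ratio, n = 3). The highest PM library (4.62) lay below the lowest B cell library (5.41). For the cytosolic pair, Ncf4 over Ncf1 was 1.05 ± 0.285 in PMs, 2.38 ± 0.425 in CD11b- B cells and 2.18 ± 0.0305 in CD11b+ B cells, again without overlap between PMs (up to 1.37) and B cells (from 2.04). Rac2 over Cybb was 0.549 ± 0.256 in PMs, 8.63 ± 0.926 in CD11b- B cells and 7.14 ± 0.547 in CD11b+ B cells. Its B cell libraries ran from 7.99 to 9.69 in CD11b- and from 6.55 to 7.64 in CD11b+ B cells, which is at the smallest exact permutation p that 3 libraries against 3 allow (p = 0.1), and a ratio chosen after the levels were seen cannot support a difference between these groups.

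The share of Rac2 in the summed FPKM of Rac1 and Rac2 gives the balance between the GTPases. It was 86.1%, 88.8% and 85.0% in PMs, 93.7%, 93.4% and 98.6% in CD11b- B cells, and 96.7%, 95.6% and 94.4% in CD11b+ B cells. Rac2 thus made up most of the pair in every library, and all 6 B cell libraries were above the PM libraries. The mean share exceeded that of PMs by 8.94 percentage points in CD11b+ B cells and by 8.59 points in CD11b- B cells (exact permutation p = 0.1 each, the smallest possible, and 0.15 adjusted over 3 comparisons). The B cell groups differed by 0.35 points (exact permutation p = 0.8, adjusted 0.8), less than the SD of 2.92 points in CD11b- B cells. From whole reads instead of FPKM the mean shares were 81.8% in PMs, 93.3% in CD11b- and 93.7% in CD11b+ B cells.

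**Figure D4:**
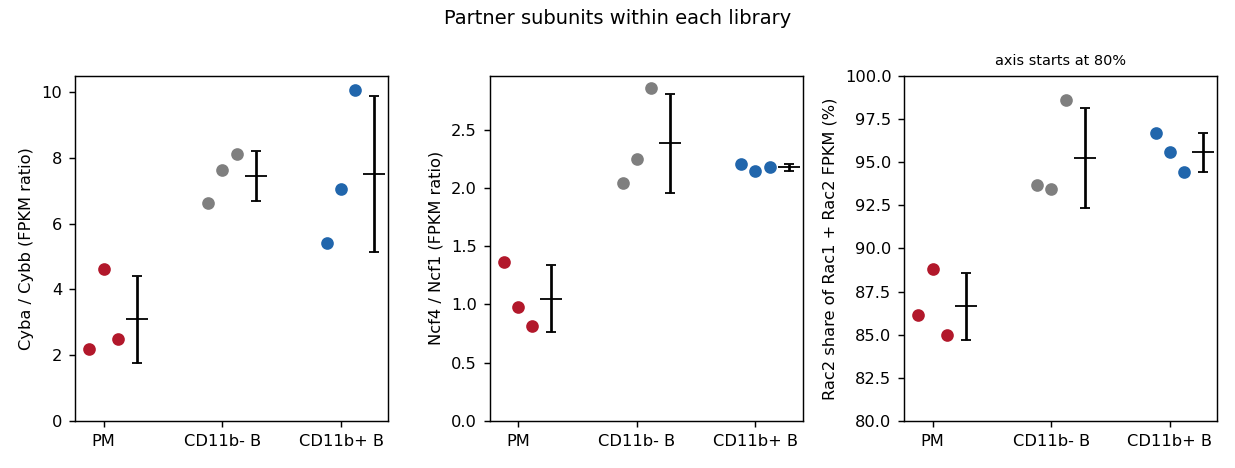
Cyba over Cybb, Ncf4 over Ncf1 (FPKM ratios, axes from 0) and the Rac2 share of Rac1 plus Rac2 FPKM in percent (axis from 80%) in each library; points are libraries and bars the mean with SD (n = 3). In all 3 panels the PM libraries lie below every B cell library, and the B cell groups overlap.

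Each gene had companions whose profile over the 9 libraries was most like its own, measured by the root mean square difference of centred log2(FPKM + 1) values among 12492 other genes with a mean of at least 1 FPKM. For Cybb they were Kif13a (0.12), Mfsd6 (0.13) and Mlkl (0.14), and for Cyba Slc66a2 (0.10), Mrps6 (0.13) and Myl6 (0.14). For Ncf1 they were Prdx3 (0.09), Vdac3 (0.11) and Ndufa10 (0.11), for Ncf4 Usp10 (0.07), Ddx39b (0.10) and Hltf (0.10), and for Rac2 Nop9 (0.10), Ints5 (0.11) and Coa7 (0.11). Rac1 had no close companion: its nearest was Clptm1l at 0.38, followed by Mpp6 (0.38) and Mtch1 (0.38). Its profile includes the low value of CD11b- replicate 3 (8.13 FPKM), and the distances without that library were not computed. The measure is a difference on the log2(FPKM + 1) scale, on which the pseudocount shrinks the folds of low genes, so likeness here is not an equal fold: Kif13a had means of 5.32 FPKM in PMs and 0.298 FPKM in CD11b- B cells, a larger fold than that of Cybb (385 and 70.2 FPKM). No subunit was among the 3 nearest genes of another. The closest pair of subunits was Ncf4 and Rac2, 0.28 apart on this log2 scale, with 7.996% of candidate genes closer to Ncf4 than Rac2, and the widest was Cybb and Rac2 at 1.88.

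Of 69 other genes of the pathway in 6 lists, 59 were tested in each comparison. Between CD11b+ and CD11b- B cells none was called, 13 had an unadjusted p below 0.05 (7.68% of all genes tested did) and 21 had groups that did not overlap (14.9% of all genes). The median log2 fold change was -0.12, beside 0.03 over all genes tested. The lowest adjusted p was that of Hmox1, heme oxygenase, which degrades heme and is induced by oxidants. Hmox1 was 0.120, 0.851 and 0.552 FPKM in CD11b- B cells and 14.0, 12.1 and 5.09 FPKM in CD11b+ B cells, a log2 fold change of 2.85 (SE 0.38, limma adjusted p = 0.0726), and it was 47.8, 86.3 and 73.5 FPKM in PMs. It was named after its value was seen. It passed the threshold under several other settings (adjusted p = 0.0170 with all 9 libraries in 1 fit), and macrophage markers, which were also higher in CD11b+ B cells, moved with it, and their part in its level was not tested.

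Against PMs, 12 of the 59 genes were higher and 20 lower in CD11b+ B cells, and 17 higher and 21 lower in CD11b- B cells. Of all genes tested, 21.5% were higher and 8.78% lower in the former and 25.8% and 11.0% in the latter. With median-ratio scaling 6 were higher and 24 lower in CD11b+ B cells, and 8 rose and 25 fell in CD11b- B cells, where the shares of all genes tested on that scale were 12.6% higher and 12.2% lower in CD11b+ and 15.9% and 15% in CD11b- B cells. The list of assembly factors and Rac regulators (16 genes) had 6 higher and 4 lower in CD11b+ B cells, and 7 higher and 3 lower in CD11b- B cells, which became 3 against 4 and 3 against 5 with median-ratio scaling. Its largest rise was that of Arhgap25, a GTPase-activating protein for Rac, by 2.62 and 3.004 on the log2 scale (adjusted p = 2.3e-05 and 9.5e-06 by limma), from 7.90 to 10.04 FPKM in PMs to 58.4 to 87.6 FPKM in B cells. Its largest fall was that of Tiam1, an exchange factor that loads Rac with GTP, with log2 fold changes of -1.86 and -2.03, from a mean of 3.56 FPKM in PMs to 0.251 and 0.110 FPKM in CD11b+ and CD11b- B cells.

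Among 12 kinases that act on the oxidase, 3 were higher and 3 lower in CD11b+ B cells and 5 higher and 3 lower in CD11b- B cells (beside 21.5% and 8.78%, and 25.8% and 11.0%, of all genes), which became 2 against 4 and 3 against 4 with median-ratio scaling. Syk, the tyrosine kinase behind the B cell receptor and Fc receptors, was 23.1 to 43.4 FPKM in PMs and 104 to 156 FPKM over the B cell libraries, a rise of 1.79 and 2.04 on the log2 scale. Pak1, a Rac effector kinase that phosphorylates p47phox, had a mean of 8.71 FPKM in PMs and of 1.0 and 0.326 FPKM in CD11b+ and CD11b- B cells, with log2 fold changes of -2.23 and -2.84.

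Hvcn1, the voltage-gated proton channel that offsets the charge moved by the oxidase, had the largest called rise of the 59 genes against PMs on the log2(FPKM + 1) scale. It was 5.50, 5.29 and 4.42 FPKM in PMs, 107, 98.9 and 128 FPKM in CD11b- B cells, and 80.4, 80.3 and 63.6 FPKM in CD11b+ B cells. The log2 fold change was 3.64 in CD11b+ (SE 0.19, limma adjusted p = 6.5e-06) and 4.21 in CD11b- B cells (SE 0.17, limma adjusted p = 2.2e-06).

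The list for the removal of superoxide and peroxide had 18 genes tested, among them Hmox1, Gclc, Gclm and Nqo1, which do not act on these oxidants themselves. In it 9 were lower and none was higher in CD11b+ B cells (8.78% and 21.5% of all genes tested), and 11 were lower and 1 was higher in CD11b- B cells (11.0% and 25.8% of all genes), and with median-ratio scaling 11 were lower and none higher in each group. Prdx5, a peroxiredoxin, had a mean of 463 FPKM in PMs, 52.5 FPKM in CD11b+ and 50.8 FPKM in CD11b- B cells, with a log2 fold change of -3.11 in CD11b+ B cells. Hmox1 fell by 5.53 in CD11b- B cells. Gclc, the catalytic chain of the enzyme that starts glutathione synthesis, rose by 1.23 in CD11b- B cells, from 3.85 to 10.4 FPKM on average, and was not called with median-ratio scaling (0.76, adjusted p = 0.105).

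The list for NADPH supply had 9 genes, among them Pgls, Tkt, Taldo1 and Me2, which do not make NADPH as their main product. In it 2 (Pgls and Me2) were higher and 4 lower in each B cell group, beside the same shares of all genes (21.5% and 8.78% in CD11b+, 25.8% and 11.0% in CD11b- B cells). With median-ratio scaling 5 were lower in each, none was higher in CD11b+ and 1 was higher in CD11b- B cells. Idh1, the cytosolic isocitrate dehydrogenase, was 96.7 to 148 FPKM in PMs and 3.99 to 7.79 FPKM over the B cell libraries, with log2 fold changes of -4.23 in CD11b+ and -4.06 in CD11b- B cells. Me2, the mitochondrial malic enzyme, rose by 1.22 and 1.46, from a mean of 8.65 FPKM to 21.7 and 25.6 FPKM, and with median-ratio scaling the CD11b+ call was lost (0.70, adjusted p = 0.0564). The 9 genes of the other NADPH oxidases and their partners were at or near 0, and none had a mean above 0.316 FPKM in any group. Nox1, at that highest mean in CD11b- B cells with 30 to 41 reads a library, had no read in PMs and was called in that comparison (limma adjusted p = 0.0322), though not with median-ratio scaling (adjusted p = 0.0537).

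**Figure D5:**
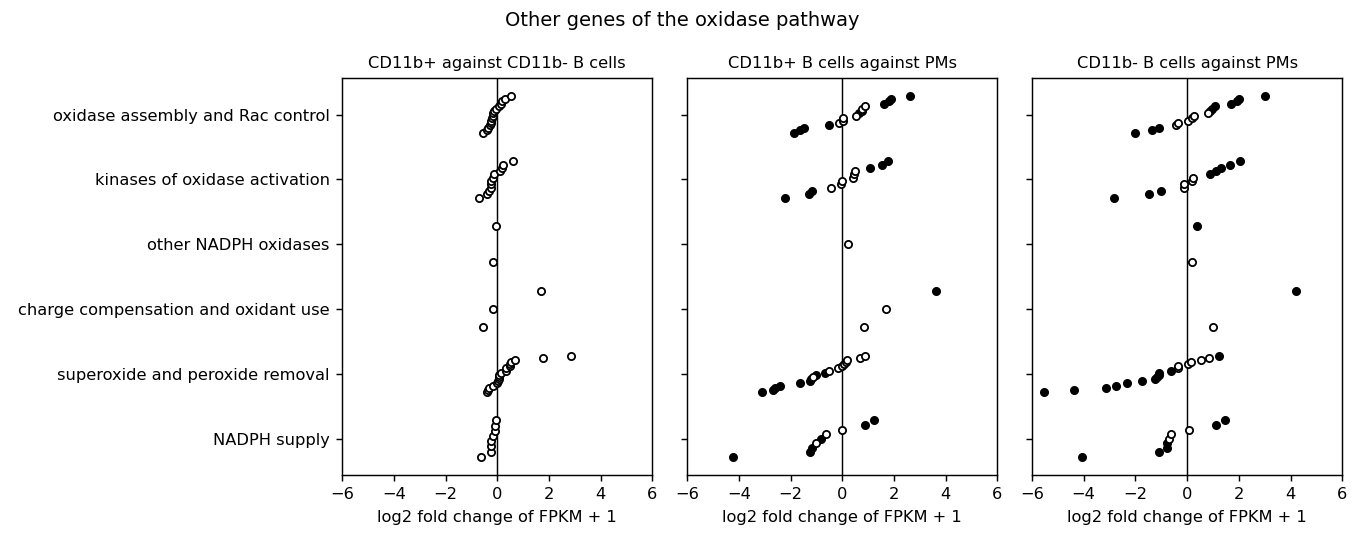
Fitted log2 fold change of each tested gene of 6 oxidase pathway lists in the 3 comparisons; filled points passed an adjusted p of 0.05. No gene passed between the B cell groups, and against PMs the points run from Hmox1 at -5.53 to Hvcn1 at 4.21.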

How the data were processed

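Per the labels and the methods of the study, the authors made cDNA with SMART-seq HT, read it as 150 nt pairs, trimmed reads (Trim Galore 0.4.4, Trimmomatic 0.36 and cutadapt 1.16 are in the submitters' processing notes), aligned them with STAR 2.7.2b and counted them per gene with featureCounts 1.6.1. The notes name GRCm38 and GRCm39, so positions were taken by Ensembl ID from GENCODE on GRCm38. The authors deposited FPKM values per gene and library, and a signal table of 11063 genes (counts scaled by the size factor of each library), which served to check the reads and lacks Ncf1. Multiplying FPKM by exon length and dividing by the value of 1 read in each library gave whole reads for all values (within 0.05 of a read), and these served for the count models. Levels were tested as log2(FPKM + 1) in limma 3.58.1 (lmFit, eBayes with a trend, two-sided) over the 6 libraries of each comparison, for genes with a mean of at least 0.05 FPKM, with Benjamini-Hochberg adjustment over all genes tested and a threshold of 0.05. Shares were compared by exact permutation. edgeR 4.0.16 and DESeq2 1.42.0 on whole reads, other pseudocounts, filters, scalings and designs, and each library left out were alternatives. The scripts were tested on simulated data.

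Named genes were all 6 subunits, each pathway gene called between the B cell groups (none in the main fit), the gene with the largest called change in each direction per pathway list against PMs, and the 3 genes most like each subunit. Other pathway genes were named for the makeup of their list or for a call under an alternative. The subunits and lists were chosen with earlier results of these data known. RefSeq start regions were in the table used here for 3 of 6 genes.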

Additional observations from a re-analysis of the deposited data

How the results depend on the processing

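The 6 subunits were tested in 3 comparisons. None was called between the B cell groups under any of 20 alternatives, and 3 to 4 were called in CD11b+ and 4 in CD11b- B cells against PMs under 19 alternatives each. No called value changed sign. The calls that were lost, Cyba and Rac2 in CD11b+ B cells against PMs, are given with their settings in the results, apart from the block below. The title numbers did not pair the libraries, since same-numbered B cell libraries deviated from their group means with correlations of 0.28, -0.02 and 0.21. The pairs at 0.28 and 0.21, the highest of the 9 pairings, also share the number in the library code, and the pair at -0.02 does not. With the replicate block by title number 0 subunits were called between the B cell groups, 3 in CD11b+ (Cyba missed, adjusted p = 0.0926) and 4 in CD11b- B cells against PMs, and the code number block gave 0 between the B cell groups (0 over all genes, against 15 without it). Only the pairs at 0.28 and 0.21 share a code number, so that block leaves very few degrees of freedom. Its loss of calls therefore says nothing about pairing. The difference in the Rac2 share between the B cell groups turned to -0.21 points without CD11b+ replicate 1, -0.44 without CD11b- replicate 1 and -0.54 without CD11b- replicate 2 (range -0.54 to 2.03 points), so its sign rests on single libraries. Against PMs it ranged from 8.11 to 10.03 points (CD11b+) and from 6.91 to 9.67 (CD11b-) when a library was left out, and was 11.98 and 11.5 from whole reads. Pathway genes called between the B cell groups numbered 1 with a pseudocount of 0.1, a minimum of 1 FPKM, all 9 libraries in 1 fit or without CD11b+ replicate 3 (Hmox1 each time). They numbered 3 with DESeq2 (Hmox1, Gpx3 and Txn1, all higher in CD11b+ B cells). In edgeR without a filter they numbered 4 (Hmox1, Gpx3 and Mpo higher, Pik3cg lower). Against PMs the count in CD11b- B cells was 23 instead of 38 without a filter. Over all genes, calls between the B cell groups ran from 0 to 571, and some were lower in CD11b+ B cells under 6 of the alternatives, the cause of which was not tested. With 3 libraries a group, small changes lie within the intervals given.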
